A study of Homo sapiens with 6 samples.

Results

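The 9 genes described here encode the classical and non-classical MHC class I heavy chains HLA-B, HLA-C, HLA-E and HLA-F, their light chain B2M, the peptide transporter subunits TAP1 and TAP2, the loading factor TAPBP and the transcriptional activator NLRC5. They were taken by symbol, whatever their values, from the 18404 genes of the deposited log2 FPKM table and joined by gene identifier to the 60504 genes of the count table. All 9 had counts high enough to be tested, among 15116 genes in all. The cells were HepG2, an adherent line from a human liver carcinoma with many features of hepatocytes, grown in DMEM. One group of 3 libraries came from cells given 10 µM oridonin, a plant diterpenoid, for 48 h. The other 3 libraries came from cells given 0.1% DMSO, the solvent, for 48 h. HepG2 is a single tumour-derived line, the labels name no added interferon, and they do not give the DMSO content of the oridonin wells. They also do not say whether the 3 samples of a group were separate cultures, so the spread that p-values are measured against may be technical.

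MHC class I molecules carry peptides from inside the cell to its surface, where CD8 T cells and natural killer cells read them. Peptides are cut by the proteasome, carried into the endoplasmic reticulum by the TAP1 and TAP2 heterodimer, trimmed there, and loaded onto a heavy chain bound to B2M with the help of tapasin (TAPBP) and chaperones. Transcription of these genes is driven by NLRC5 at the SXY promoter module, where RFX, CREB/ATF and NF-Y factors bind, and by interferon regulatory factors and NF-kB. Hepatocytes normally carry little class I, and interferon gamma raises it.

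The promoter windows of 3 genes whose transcripts changed and of 1 heavy chain that was not called are shown, because 2 of them, TAP1 and PSMB9, are read in opposite directions from neighbouring starts and changed with opposite signs. They are RefSeq reference sequence on GRCh38.p14, not HepG2 alleles, and run 5′ to 3′ on the gene's strand from 250 bases before to 50 bases from the start. Capitals mark matches, on either strand, to 2 interferon regulatory factor patterns and to CCAAT, the NF-Y box; matches may overlap. The first pattern, called the paired GAAA pattern here, is a pair of GAAA blocks with any 2 bases between them, and the second is GAANNGAAA.
B2M (chr15:44711267-44711566, plus strand): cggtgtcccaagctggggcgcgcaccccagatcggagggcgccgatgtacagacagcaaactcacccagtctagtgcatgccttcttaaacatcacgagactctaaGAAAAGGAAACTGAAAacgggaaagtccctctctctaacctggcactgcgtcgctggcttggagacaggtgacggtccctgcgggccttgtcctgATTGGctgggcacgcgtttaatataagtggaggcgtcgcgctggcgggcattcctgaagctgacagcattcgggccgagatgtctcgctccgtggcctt
TAP1 (chr6:32853655-32853954, minus strand): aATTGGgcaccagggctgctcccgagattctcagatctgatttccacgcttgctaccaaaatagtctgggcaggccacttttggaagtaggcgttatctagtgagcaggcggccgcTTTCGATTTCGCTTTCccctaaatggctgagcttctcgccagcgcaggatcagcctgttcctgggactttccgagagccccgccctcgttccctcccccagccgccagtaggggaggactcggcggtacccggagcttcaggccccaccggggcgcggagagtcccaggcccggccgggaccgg
PSMB9 (chr6:32853942-32854241, plus strand): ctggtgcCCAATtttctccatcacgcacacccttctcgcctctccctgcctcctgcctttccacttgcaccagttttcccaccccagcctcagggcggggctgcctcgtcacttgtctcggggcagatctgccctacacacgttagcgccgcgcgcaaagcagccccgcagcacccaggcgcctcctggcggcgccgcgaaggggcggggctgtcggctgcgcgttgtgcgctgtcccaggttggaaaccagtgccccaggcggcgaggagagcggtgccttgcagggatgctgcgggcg
HLA-C (chr6:31272043-31272342, minus strand): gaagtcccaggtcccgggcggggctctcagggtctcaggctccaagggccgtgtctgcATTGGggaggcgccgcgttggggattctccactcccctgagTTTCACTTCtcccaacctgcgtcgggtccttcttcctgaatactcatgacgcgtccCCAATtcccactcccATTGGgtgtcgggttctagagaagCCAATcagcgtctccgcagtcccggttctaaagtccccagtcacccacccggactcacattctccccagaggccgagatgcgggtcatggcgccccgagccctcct
The B2M and TAP1 windows each held 2 overlapping matches to the paired GAAA pattern, the HLA-C window held 1 match to GAANNGAAA, and the PSMB9 window held neither. Of the other immunoproteasome genes, PSMB8, which also fell, has 2 windows, and the second held 1 match to each of these patterns; the PSMB10 window held 1 match to the paired GAAA pattern. The start sites of TAP1 and PSMB9 lie 488 bases apart, and their windows share 13 bases, which hold the same CCAAT. The paired GAAA matches of the TAP1 window lie between these starts. They are thus also upstream of PSMB9, beyond the 250 bases that its window covers. Windows were found for 7 of the 9 genes; HLA-E and NLRC5 had none. The paired GAAA pattern was in 5 of these 7 (HLA-F, B2M, TAP1, TAP2 and TAPBP) and in 3.57% of the 35116 windows of all genes. GAANNGAAA was in 3 of 7 (HLA-B, HLA-C and TAP2), against 7.66% of all windows, and CCAAT in 5 of 7 (HLA-B, HLA-C, HLA-F, B2M and TAP1), against 34.6%. TAP1 has a second RefSeq window, and no match to these patterns was found in it.

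Libraries held 22250202 to 30739574 counts in total, and all 10 hepatocyte and HepG2 markers looked for, such as ALB, AFP and APOA1, were counted in every library. Of these 10, 7 were called lower, ALB, AFP and APOA1 among them, and 1 higher, against 21.3% and 20.6% of all genes tested. Their sum was 26006 to 29950 CPM (counts scaled to the library's total) in DMSO and 16600 to 19101 CPM in oridonin. Counts from other cell types were uneven among the libraries. The summed immunoglobulin constant genes, of which 10 of 11 had a count, were at 0.0449, 10.5 and 18.5 CPM in DMSO 1 to 3 and at 26.9, 85.1 and 79.7 CPM in oridonin 1 to 3. Of the wider list of B and plasma cell markers 17 of 19 had a count, with a summed level of 7.91 to 26.7 CPM in DMSO and 49.9 to 109.6 CPM in oridonin; MS4A1, the B cell surface marker CD20, and IGLC1 were at 0 in all 6 libraries. The class II alpha and beta chains, which B cells and myeloid cells express, summed to 0.135 to 0.561 CPM in DMSO and 0.748 to 3.86 CPM in oridonin over 7 genes, all of them with a count. The 13 gut epithelial markers, all with a count, summed to 420 to 451 CPM in DMSO and to a lower 337 to 354 CPM in oridonin, most of it from VIL1 and FABP1, which were both called lower. The other 11 summed to 2.07 to 7.12 CPM in DMSO and 13.4 to 19.7 CPM in oridonin.

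Lists of other blood cells gave no single direction. The leukocyte marker PTPRC (CD45) had 0 counts in each DMSO library and 1, 3 and 2 counts in oridonin 1 to 3, LCP1 was called higher and CORO1A lower, and the sum of these 3 genes was 27.3 to 30.8 CPM in DMSO and 22.6 to 23.4 CPM in oridonin. Myeloid markers, 11 of 11 with a count and led by LYZ, which was called lower, summed to 669 to 692 CPM in DMSO and 431 to 469 CPM in oridonin. T and NK cell markers, 8 of 9 with a count and KLRD1 at 0 in all libraries, summed to 5.03 to 5.31 CPM in DMSO and 5.46 to 7.23 CPM in oridonin. The part of these markers in the results was not tested. Values with oridonin 1 alone, leaving out oridonin 2 and 3, which carry most of the immunoglobulin counts, are given beside the named genes that were called.

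**Figure D1:**
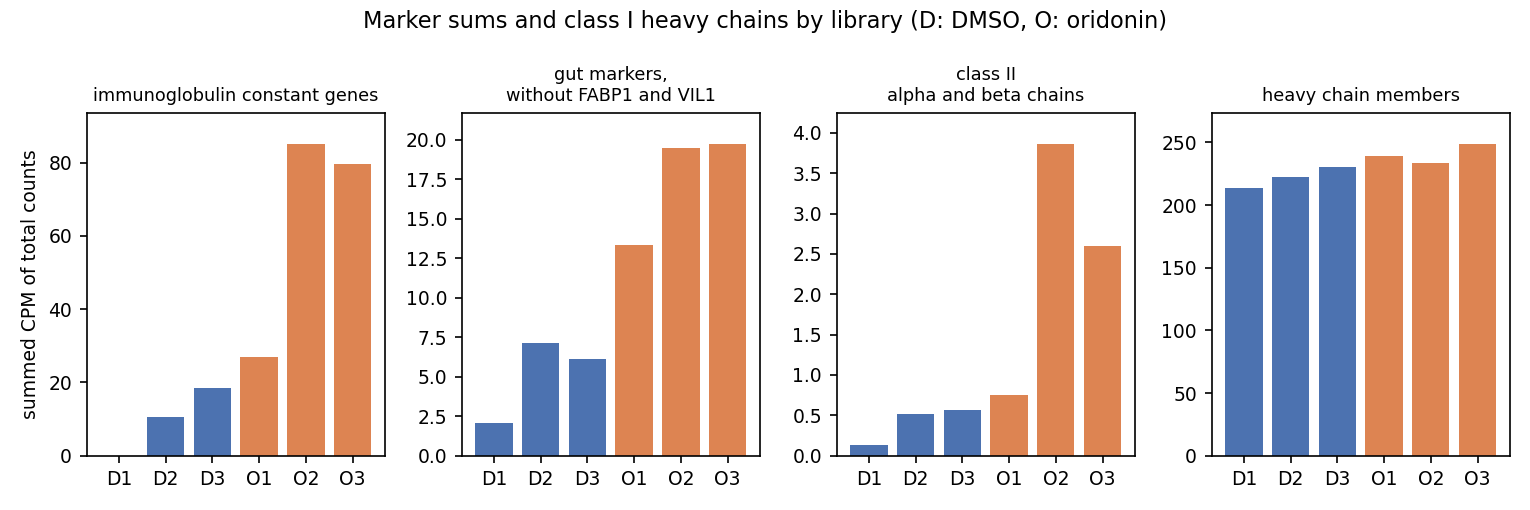
Summed CPM of total counts in each library (D1 to D3, DMSO in blue; O1 to O3, oridonin in orange) for immunoglobulin constant genes, gut markers without FABP1 and VIL1, class II chains and the 4 class I heavy chains; each bar is 1 library. The marker sums are highest in oridonin 2 and 3 and lowest in DMSO 1. The heavy chains lie between 214 and 230 CPM in DMSO and between 234 and 249 CPM in oridonin.

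After 48 h of oridonin the class I genes did not move together. The transcripts of B2M and TAP1 rose by 1.16-fold and 1.21-fold, the transcript of the activator NLRC5 fell to 0.760 of its DMSO level, and HLA-B, HLA-C, HLA-E, HLA-F, TAP2 and TAPBP were not called. Genes were called with edgeR's quasi-likelihood test at a Benjamini-Hochberg adjusted p under 0.05 over all 15116 genes tested. Over those genes 20.6% were called higher and 21.3% lower (41.9% in either direction), so 2 of 9 genes higher and 1 of 9 lower is a share near that of the whole transcriptome. The median log2 fold change of the 9 genes was -0.04, against 0.01 over all genes. In bulk RNA a smaller share of cells expressing a gene and less RNA per cell cannot be told apart. Levels below are CPM with TMM (trimmed mean of M values) scaling, with the SD over 3 libraries, and fold changes are log2 of oridonin over DMSO with the standard error (SE).

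**Figure D2:**
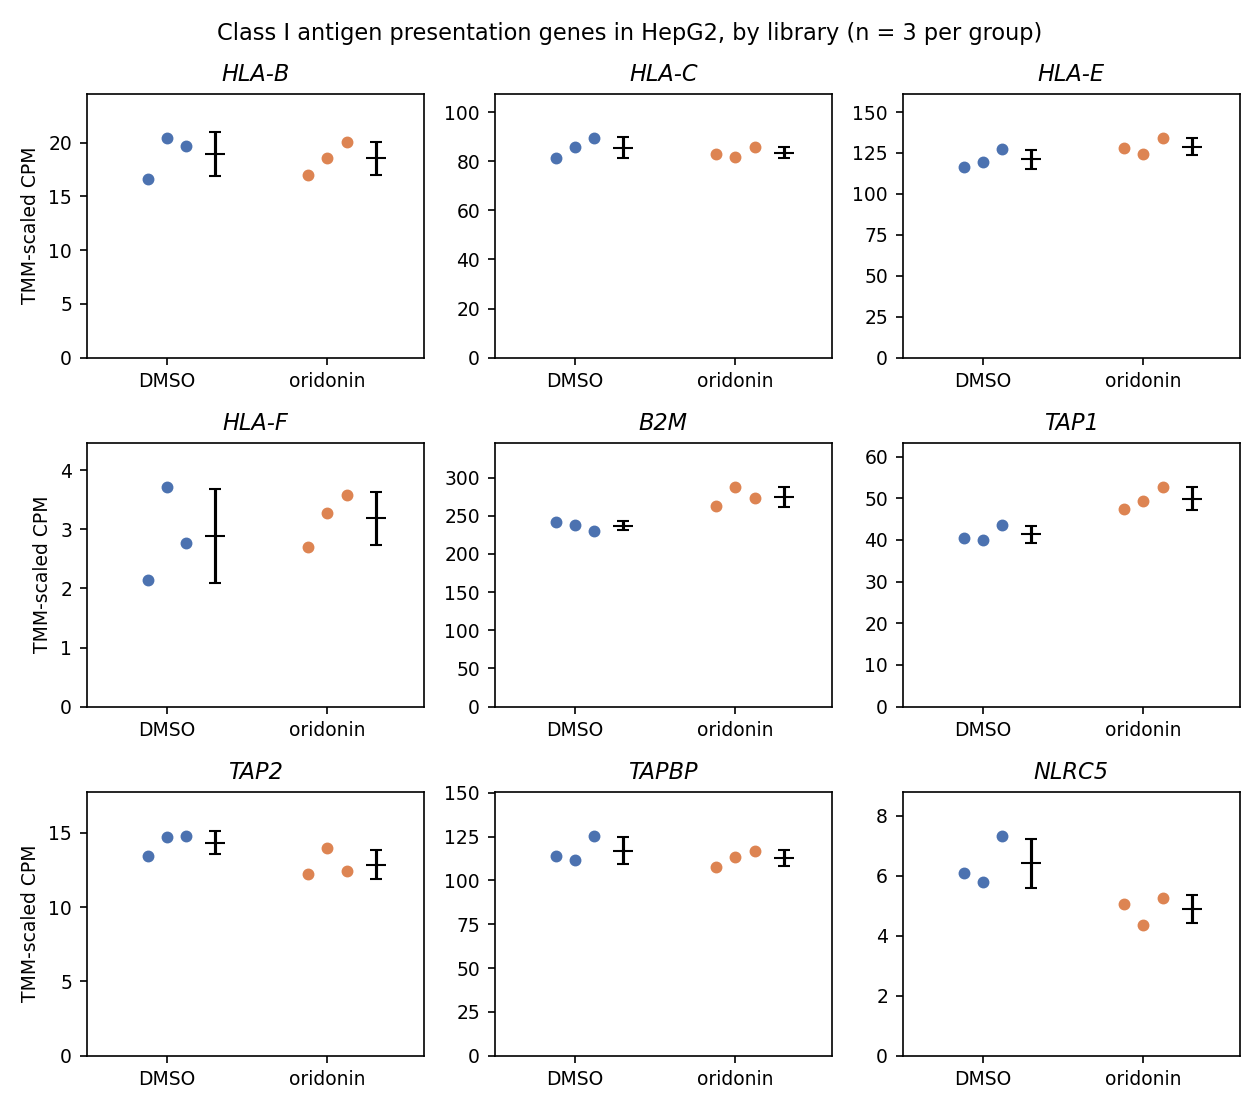
TMM-scaled CPM of the 9 class I genes in each library, DMSO in blue and oridonin in orange, from replicate 1 to 3, left to right; bars give the mean and SD of 3 libraries, and each axis starts at 0. The groups are separate for B2M, TAP1 and NLRC5 and overlap for the other 6 genes.

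Among the heavy chains, HLA-C (ENSG00000204525, hg38 chromosome 6, 31268749 to 31272130, minus strand), a classical chain that also serves as a ligand of killer cell receptors, was measured at 81.3, 85.7 and 89.7 CPM in DMSO 1 to 3 and at 83.1, 81.6 and 85.9 CPM in oridonin 1 to 3. The groups overlapped, and the log2 fold change was -0.04 ± 0.05 (SE, n = 3 per group; 95% interval -0.14 to 0.07; edgeR adjusted p = 0.625). HLA-B (ENSG00000234745, chromosome 6, 31353872 to 31357188, minus strand), the most polymorphic classical chain, was at 16.6, 20.5 and 19.7 CPM in DMSO and at 17.0, 18.6 and 20.1 CPM in oridonin. Here too the libraries of the groups interleaved, with a log2 fold change of -0.04 ± 0.09 (95% interval -0.21 to 0.13; edgeR adjusted p = 0.759).

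HLA-E (ENSG00000204592, chromosome 6, 30489467 to 30494205, plus strand), which presents signal peptides of other class I chains to the natural killer receptor CD94/NKG2A, was at 116, 119 and 128 CPM in DMSO and at 128, 124 and 134 CPM in oridonin. The groups overlapped in a narrow range, and the log2 fold change was 0.09 ± 0.05 (SE, n = 3 per group; 95% interval -0.01 to 0.19; edgeR adjusted p = 0.186). HLA-E was called when libraries were scaled by total counts alone (0.17, edgeR adjusted p = 0.0108). HLA-F (ENSG00000204642, chromosome 6, 29722775 to 29738528, plus strand), a chain that can reach the surface without peptide, had only 47 to 106 counts per library. Its levels were 2.14, 3.72 and 2.78 CPM in DMSO and 2.70, 3.28 and 3.58 CPM in oridonin, with overlapping groups. The log2 fold change of 0.12 ± 0.19 (95% interval -0.24 to 0.48; edgeR adjusted p = 0.635) left a wide interval at this depth.

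Reads of near-identical class I genes can be assigned to the wrong chain, so the 4 chains were also summed before the fit. With TMM scaling their sum was 216, 229 and 240 CPM in DMSO and 231, 228 and 244 CPM in oridonin, and the groups overlapped. The log2 fold change of the sum with this scaling was 0.03 ± 0.05 (SE, n = 3 per group; 95% interval -0.06 to 0.13; edgeR adjusted p = 0.615). Scaled by total counts alone, the sum was 214, 222 and 230 CPM in DMSO and 239, 234 and 249 CPM in oridonin, and the groups were separate. Shared stretches of sequence were searched on either strand of the transcripts in the GENCODE v29 annotation. Of the 100-base stretches, 12.9% in HLA-B and 15.3% in HLA-F transcripts occur in another gene. Both chains overlap opposite-strand genes there, HLA-B in 542 exon bases and HLA-F in 1236. These shares therefore need not be sequence common to class I chains. None of the 100-base stretches of the 4 chains occurs in another of the 9 genes. At 50 bases, 3.79% of the stretches in HLA-C, 2.57% in HLA-B, 1.23% in HLA-E and 0.521% in HLA-F do. Counted over any other gene, the shares at 50 bases were 5.70% in HLA-C, 17.8% in HLA-B, 4.87% in HLA-E and 21.6% in HLA-F. The sum does not cover reads shared with genes outside the 4 chains. The read length is not given in the sources used here.

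B2M (ENSG00000166710, chromosome 15, 44711477 to 44718877, plus strand), the invariant light chain without which most heavy chains do not leave the endoplasmic reticulum, was at 242, 238 and 231 CPM in DMSO and at 262, 288 and 273 CPM in oridonin. Every oridonin library was above every DMSO library, as for 26.0% of all genes tested, TAP1 (below) included; the reverse order held for 25.6%, with NLRC5 among them. The mean rose from 237 ± 5.86 to 275 ± 13.0 CPM (SD, n = 3), a log2 fold change of 0.21 ± 0.05 (SE; 95% interval 0.12 to 0.31; edgeR adjusted p = 0.00204). B2M is expressed by nearly all nucleated cells. Its level was highest in oridonin 2, where the immunoglobulin sum was also highest at 85.1 CPM. Among the DMSO libraries it was highest in DMSO 1, which held 1 immunoglobulin count. The part of other cell types in these levels was not tested. With oridonin 1 alone against the 3 DMSO libraries, where the lone library is assumed to vary as the DMSO libraries do, the log2 fold change was 0.14 (edgeR adjusted p = 0.168) and the call was lost.

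The ratio of B2M to the summed heavy chains, taken within each library and so free of scaling, was 1.12, 1.04 and 0.961 in DMSO and 1.14, 1.27 and 1.12 in oridonin. The groups were separate by a small margin, since oridonin 3 at 1.121 lay just above DMSO 1 at 1.118. The difference of 0.18 on the log2 scale had an exact two-sided permutation p of 0.1 over 6 libraries, adjusted p = 0.1, which is the smallest p that 3 against 3 can give. This ratio and 4 others (TAP1 to TAP2, TAP1 to PSMB9, TAP1 to PSMB8 and HLA-E to HLA-C) were chosen after the values were seen, and adjustment was over these 5. The HLA-E to HLA-C ratio was 1.43, 1.39 and 1.42 in DMSO and 1.54, 1.52 and 1.57 in oridonin, so that HLA-E was higher relative to HLA-C in every oridonin library (log2 difference 0.12, exact two-sided permutation p = 0.1, adjusted p = 0.1).

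Of the transporter and loading genes, only TAP1 was called. TAP1 (ENSG00000168394, chromosome 6, 32845209 to 32853978, minus strand), an ATP-binding subunit of the peptide transporter, was at 40.4, 39.9 and 43.6 CPM in DMSO and at 47.4, 49.3 and 52.8 CPM in oridonin. The groups did not overlap, and the mean rose from 41.3 ± 2.02 to 49.9 ± 2.73 CPM (SD, n = 3), with a log2 fold change of 0.27 ± 0.06 (SE; 95% interval 0.15 to 0.39; edgeR adjusted p = 0.00205). With oridonin 1 alone, under the same assumption, it was 0.20 (edgeR adjusted p = 0.139). In GENCODE v29, 456 of the 4805 exon bases of TAP1 overlap the antisense gene PSMB8-AS1, which was at no more than 0.146 CPM in any library. The deposited length of TAP1 was 4578 bases, so the counted annotation was not the same for this gene.

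TAP2 (ENSG00000204267, chromosome 6, 32821833 to 32838780, minus strand), the partner subunit of the same heterodimer, was at 13.4, 14.8 and 14.8 CPM in DMSO and at 12.2, 14.0 and 12.4 CPM in oridonin. The groups overlapped and TAP2 was not called, with a log2 fold change of -0.16 ± 0.08 (SE, n = 3 per group; 95% interval -0.32 to 0.01; edgeR adjusted p = 0.145). TAPBP (ENSG00000231925, chromosome 6, 33299694 to 33314387, minus strand), or tapasin, which bridges the transporter and the heavy chain, was at 114, 112 and 126 CPM in DMSO and at 108, 113 and 117 CPM in oridonin. These groups overlapped as well, with a log2 fold change of -0.06 ± 0.06 (95% interval -0.16 to 0.05; edgeR adjusted p = 0.449).

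Within libraries, TAP1 stood at 3.00, 2.71 and 2.94 times TAP2 by CPM in DMSO and at 3.88, 3.53 and 4.25 times in oridonin. All oridonin ratios were above all DMSO ratios, a log2 difference of 0.43 (exact two-sided permutation p = 0.1, adjusted p = 0.1, the smallest possible). In 32.3% of its exon bases TAP2 overlaps a same-strand gene, AL669918.1, which had no count, so reads in that stretch either counted for TAP2 or were dropped.

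NLRC5 (ENSG00000140853, chromosome 16, 56989485 to 57083531, plus strand), the activator that binds class I promoters through the SXY module, was weakly expressed, with 134 to 201 counts per library. It was at 6.11, 5.80 and 7.34 CPM in DMSO and at 5.05, 4.35 and 5.25 CPM in oridonin. The groups did not overlap, with DMSO 3 standing highest, and the log2 fold change was -0.40 ± 0.13 (SE, n = 3 per group; 95% interval -0.64 to -0.15; edgeR adjusted p = 0.0178). The call was lost without DMSO 3 (-0.29, edgeR adjusted p = 0.0937), without oridonin 2 (-0.32, edgeR adjusted p = 0.0917), with oridonin 1 alone (-0.35, edgeR adjusted p = 0.202) and in a limma fit to the deposited log2 FPKM values (-0.37, limma adjusted p = 0.209).

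Per length, in the deposited FPKM values, the level of HLA-E was highest in DMSO at 40.4 ± 2.20 FPKM (SD, n = 3), followed by B2M at 38.6 ± 0.705 FPKM, and these neighbours overlapped. HLA-C at 33.9 FPKM, TAPBP at 23.0, TAP1 at 8.95, HLA-B at 6.23 and TAP2 at 2.23 FPKM came next, each apart from its neighbours. HLA-F at 0.660 FPKM and NLRC5 at 0.515 FPKM were last and overlapped. With oridonin B2M was first at 45.3 ± 2.20 FPKM and HLA-E second at 43.5 ± 1.79 FPKM, again overlapping, and the order of the other 7 was as in DMSO, with HLA-F and NLRC5 now apart. The length used for B2M was 6089 bases, while its annotated coding transcripts are 933 to 1705 bases long, so its FPKM is low for the size of its usual transcripts. The other lengths used also exceeded the longest coding transcript, by unequal amounts. For HLA-C they were 2507 against 1554 bases, and for HLA-E 2975 against 2601 bases. The order of the genes by FPKM thus depends on the lengths used.

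Upstream of the transporter, the proteasome genes changed in opposite directions. The interferon-inducible immunoproteasome and PA28 activator list had 4 of 5 genes lower and 0 higher, while all 3 constitutive catalytic subunits were higher. Over all genes tested, 21.3% were called lower and 20.6% higher. PSMB8 (LMP7) was at 23.1, 24.97 and 23.7 CPM in DMSO and at 18.6, 19.1 and 18.9 CPM in oridonin, and it fell by 0.34 on the log2 scale (SE 0.07, n = 3 per group, edgeR adjusted p = 5.84e-04). PSMB9 (LMP2), on the strand opposite TAP1, was at 5.10, 4.21 and 3.61 CPM in DMSO and at 2.61, 3.05 and 2.87 CPM in oridonin, and it fell by 0.59 (SE 0.15, edgeR adjusted p = 0.00505). Both drops were also called with oridonin 1 alone, at -0.37 and -0.72 (edgeR adjusted p = 0.0220 and 0.0383). PSMB10, the third inducible subunit, ranged from 0.775 to 1.51 CPM over the DMSO and from 0.844 to 1.06 CPM over the oridonin libraries and was not called (log2 fold change -0.38 ± 0.27, edgeR adjusted p = 0.269).

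The PA28 subunit PSME1 fell from 221 ± 7.53 to 167 ± 4.88 CPM (SD of 3 libraries; edgeR adjusted p = 3.93e-06). Its partner PSME2 fell from 151 ± 4.07 to 132 ± 5.13 CPM (edgeR adjusted p = 0.00411), a call lost with total counts alone (-0.12, edgeR adjusted p = 0.0585). Both were called with oridonin 1 alone (-0.44 and -0.26, edgeR adjusted p = 5.47e-04 and 0.0206). Of the constitutive subunits, PSMB5 rose from 267 ± 11.3 to 302 ± 11.6 CPM, PSMB6 from 140 ± 4.75 to 157 ± 3.99 CPM and PSMB7 from 176 ± 2.56 to 203 ± 1.53 CPM (edgeR adjusted p = 0.00847, 0.0136 and 0.00174). PSMB5 lost its call without DMSO 1 (0.14, edgeR adjusted p = 0.0640), and PSMB6 without DMSO 1 or without oridonin 1 (0.13 and 0.15, edgeR adjusted p = 0.0928 and 0.0576). None of the 3 was called with oridonin 1 alone (edgeR adjusted p = 0.0687, 0.120 and 0.0595).

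**Figure D3:**
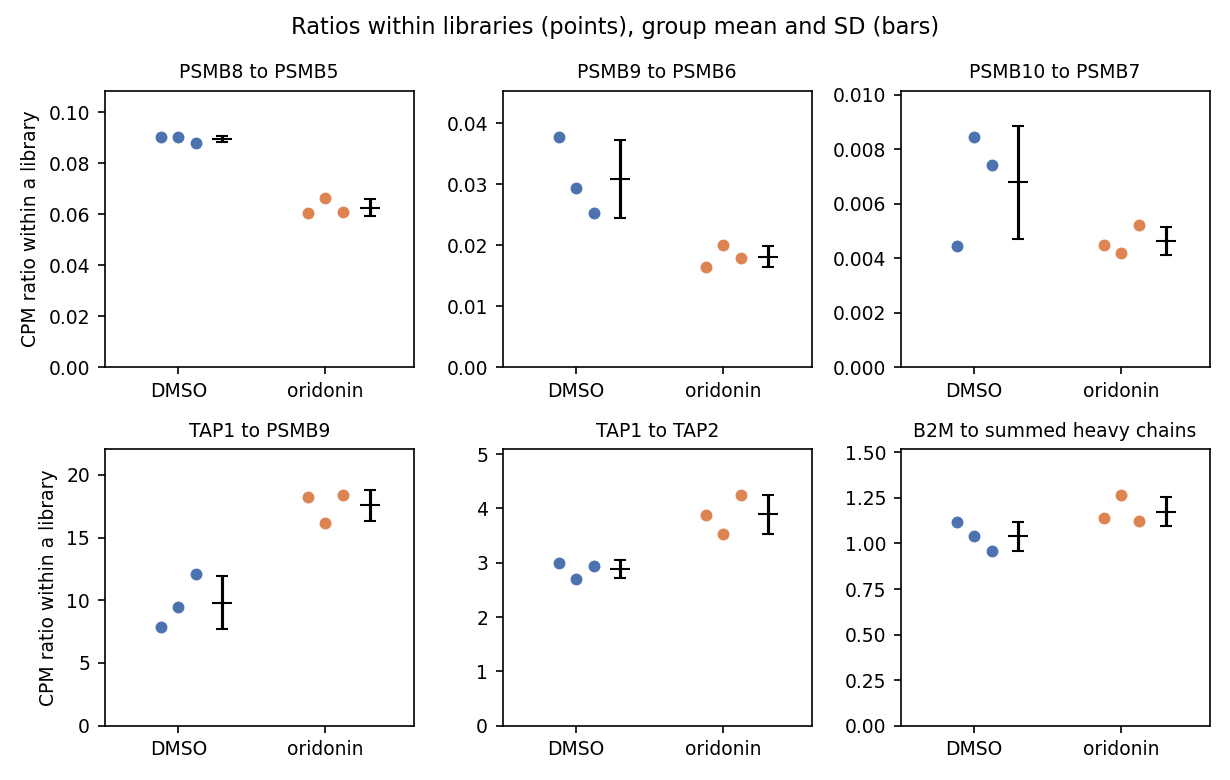
Ratios of CPM within each library (points; DMSO blue, oridonin orange) with the group mean and SD of 3 libraries (bars), on linear axes from 0. The PSMB8 to PSMB5 and PSMB9 to PSMB6 ratios are lower in every oridonin library, PSMB10 to PSMB7 overlaps, and the TAP1 to PSMB9, TAP1 to TAP2 and B2M to heavy chain ratios are higher in every oridonin library.

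Each inducible subunit replaces 1 constitutive partner in the catalytic core, so the pairs were compared within libraries. The PSMB8 to PSMB5 ratio was 0.0905, 0.0902 and 0.0881 in DMSO and 0.0606, 0.0664 and 0.0610 in oridonin, a log2 difference of -0.52. The PSMB9 to PSMB6 ratio was 0.0378, 0.0294 and 0.0253 in DMSO and 0.0165, 0.0200 and 0.0179 in oridonin, a log2 difference of -0.75. The groups were separate for both (exact two-sided permutation p = 0.1 each, the smallest possible, adjusted p = 0.15 over 3 ratios). The PSMB10 to PSMB7 ratio differed by -0.51 with overlapping groups (exact permutation p = 0.3, adjusted p = 0.3).

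TAP1, PSMB8, PSMB9 and TAP2 lie in 1 cluster in the class II region of the MHC. In the deposited annotation PSMB9, on the plus strand from 32844136 to 32859585, spans the whole of TAP1. It also overlaps the part of PSMB8 that holds its start, and TAP1 and PSMB8 are both on the minus strand. TAP1 rose while PSMB8 and PSMB9 fell: the ratio of TAP1 to PSMB9 was 7.91, 9.48 and 12.1 in DMSO and 18.2, 16.2 and 18.4 in oridonin, and that of TAP1 to PSMB8 differed by 0.61 on the log2 scale. Both ratios were higher in every oridonin library than in every DMSO library (exact two-sided permutation p = 0.1 each, adjusted p = 0.1, the smallest possible). In GENCODE v29, PSMB8 and PSMB9 share 139 exon bases on opposite strands. PSMB8 has 2997 exon bases there, against a deposited length of 2006, so the overlap in the counted annotation may differ. The strand setting of the counting is not given in the sources used here, so reads in a shared stretch could count for either.

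**Figure D4:**
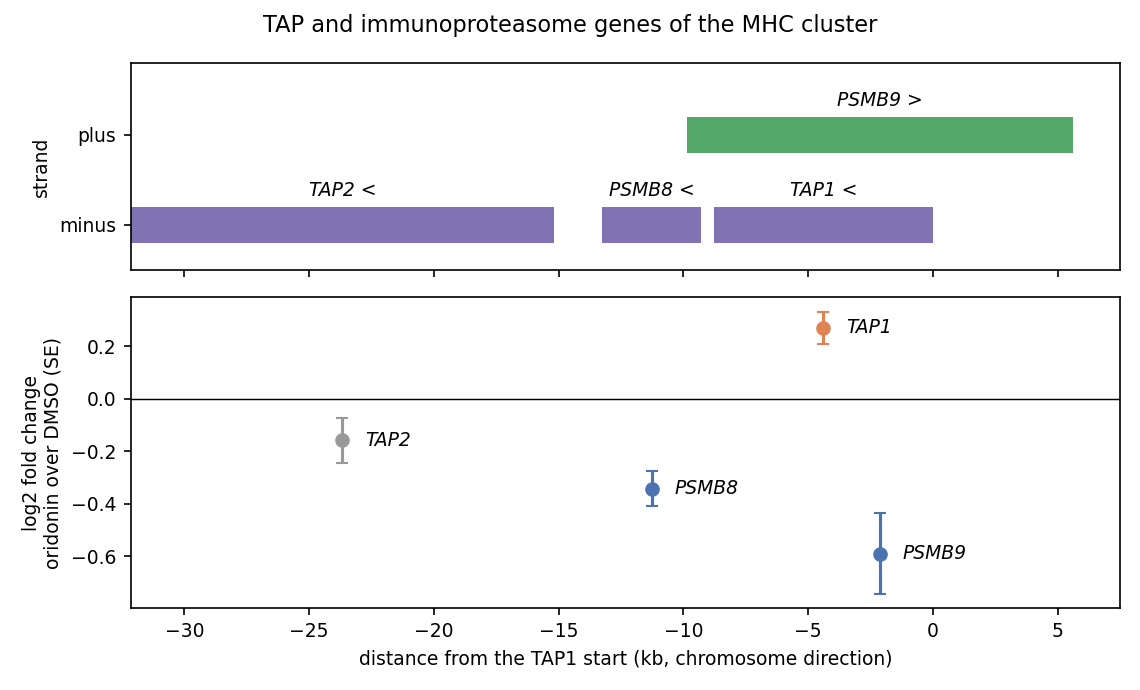
Gene bodies of TAP2, PSMB8, TAP1 and PSMB9 by strand (upper panel), with distance from the TAP1 start in kb along the chromosome, and below them the log2 fold change with its SE at the middle of each gene. TAP1 is above 0 at 0.27, while PSMB8 and PSMB9 are below 0 at -0.34 and -0.59, and TAP2, at -0.16, was not called.

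In the endoplasmic reticulum, all 7 genes listed for peptide trimming and chain folding were called lower, against 21.3% of all genes tested. Their log2 fold changes lay between -0.67 and -0.32. ERAP1, the aminopeptidase that trims peptides to class I length, was at 39.0, 35.5 and 35.3 CPM in DMSO and at 24.1, 21.9 and 23.8 CPM in oridonin (log2 fold change -0.65 ± 0.07, edgeR adjusted p = 7.71e-07). The lectin chaperone of the loading complex, calreticulin (CALR), fell from 1325 ± 14.3 to 986 ± 31.1 CPM (edgeR adjusted p = 8.82e-07). Calnexin (CANX), which holds new heavy chains, fell from 982 ± 32.6 to 777 ± 25.4 CPM, and UGGT1, the glucosyltransferase that returns misfolded glycoproteins to these lectins, fell from 345 ± 14.4 to 269 ± 6.95 CPM (edgeR adjusted p = 2.04e-05 and 1.46e-05). These chaperones serve many other glycoproteins, and those 4 genes were also called with oridonin 1 alone.

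**Figure D5:**
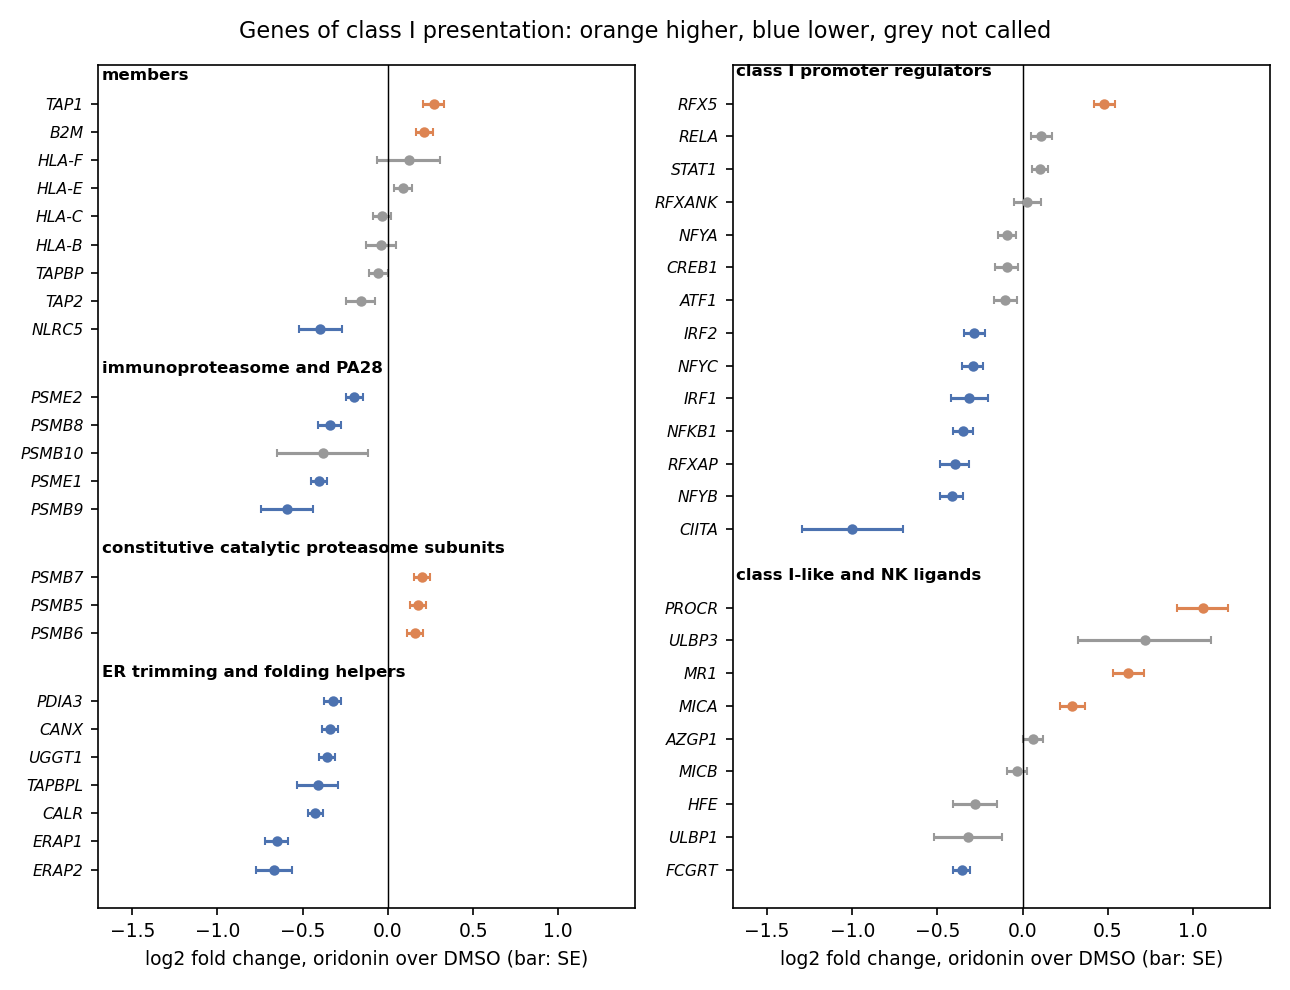
Log2 fold changes of oridonin over DMSO with the SE for the 9 class I genes and 5 lists around them; orange marks genes called higher, blue lower and grey not called. The 7 endoplasmic reticulum helpers and 4 of 5 immunoproteasome and PA28 genes lie below 0 and are called lower, and the 3 constitutive subunits are called higher.

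Of 14 regulators of class I promoters, 1 was called higher, 7 lower and 6 not, against 20.6% higher and 21.3% lower over all genes tested. RFX5, a DNA-binding subunit of the RFX complex, rose from 24.2 ± 0.921 to 33.7 ± 0.540 CPM, by 0.48 on the log2 scale (edgeR adjusted p = 1.05e-05). Its partner RFXAP fell from 14.3 ± 0.522 to 10.8 ± 0.834 CPM, and the NF-Y subunits NFYB and NFYC dropped from 25.2 ± 0.810 to 18.9 ± 0.855 and from 44.1 ± 2.63 to 36.0 ± 1.62 CPM (edgeR adjusted p = 0.00121, 1.10e-04 and 0.00131). NFKB1, the p50 precursor of NF-kB, fell from 83.8 ± 4.17 to 65.8 ± 3.35 CPM (edgeR adjusted p = 1.01e-04). Of these 5, NFYC alone lost its call with oridonin 1 alone (-0.25, edgeR adjusted p = 0.0787). Named after its values were seen, CIITA, the class II counterpart of NLRC5, had 13 to 29 counts per library and fell from a mean of 1.01 to 0.493 CPM (edgeR adjusted p = 0.0119). That call was lost without DMSO 1 (-0.85, edgeR adjusted p = 0.0542), without oridonin 2 (-0.90, edgeR adjusted p = 0.0575), with oridonin 1 alone (-0.74, edgeR adjusted p = 0.253) and with limma on the log2 FPKM values (limma adjusted p = 0.107).

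Among 17 genes of interferon gamma input and response, 10 were tested, of which 1 rose, 4 fell and 5 were not called. The shares over all genes tested were 20.6% higher and 21.3% lower. SOCS1, a feedback inhibitor of JAK signalling, fell from 9.26 ± 1.12 to 4.17 ± 0.533 CPM (SD of 3 libraries; edgeR adjusted p = 1.22e-06), and the tryptophanyl-tRNA synthetase WARS1, an interferon-induced gene, fell from 151 ± 5.94 to 113 ± 4.32 CPM (edgeR adjusted p = 5.87e-06). The receptor subunit IFNGR2 fell from 42.1 ± 1.92 to 34.8 ± 1.57 CPM, and the kinase JAK2, which that receptor activates, rose from 6.17 ± 0.796 to 8.94 ± 0.466 CPM (edgeR adjusted p = 0.00176 and 8.67e-04). IRF1, the interferon-induced factor that binds class I promoters, fell from 8.99 ± 1.08 to 7.28 ± 0.226 CPM (log2 fold change -0.31, edgeR adjusted p = 0.0253). That call was lost in 7 of 16 alternative settings, among them without DMSO 2 or 3 (-0.27 and -0.26, edgeR adjusted p = 0.108 and 0.0726) and without oridonin 1 or 2 (-0.29 and -0.31, edgeR adjusted p = 0.0810 and 0.0666). With oridonin 1 alone IRF1 was at -0.36 (edgeR adjusted p = 0.137), while SOCS1 (-1.27), WARS1 (-0.48), IFNGR2 (-0.33) and JAK2 (0.62) were still called (edgeR adjusted p = 1.37e-04, 4.09e-04, 0.0200 and 0.0127).

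The class I-like molecules and ligands of natural killer receptors held 9 tested genes of 12, with 3 higher, 1 lower and 5 not called. The shares over all genes tested were 20.6% higher and 21.3% lower. PROCR, the endothelial protein C receptor with a class I fold, rose from 3.74 ± 0.700 to 7.74 ± 1.23 CPM, by 1.06 ± 0.15 on the log2 scale (SE, n = 3 per group; edgeR adjusted p = 2.92e-05). MR1, which presents microbial vitamin B metabolites to MAIT cells, rose from 8.19 ± 0.460 to 12.6 ± 0.511 CPM, and MICA, a stress-induced ligand of NKG2D, rose from 31.4 ± 3.43 to 38.5 ± 0.877 CPM (edgeR adjusted p = 3.03e-05 and 0.00384). FCGRT, the neonatal Fc receptor chain that pairs with B2M and recycles albumin and IgG, fell from 130 ± 4.29 to 101 ± 4.15 CPM (edgeR adjusted p = 2.63e-05). With oridonin 1 alone the MICA call was lost (0.25, edgeR adjusted p = 0.121), and the other 3 were still called.

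Of 14 class II presentation genes only CD74, the invariant chain, and the protease CTSS were tested, and neither was called: the mean of CD74 was 46.2 ± 1.15 CPM with DMSO and 44.7 ± 3.12 with oridonin, and that of CTSS was 1.14 ± 0.360 and 0.802 ± 0.250 CPM (SD of 3 libraries; edgeR adjusted p = 0.567 and 0.210). Over all 7 lists, with the 9 class I genes left out, 48 of 70 genes were tested. Of these, 8 were called higher, 22 lower and 18 not, against 20.6% higher and 21.3% lower over all genes tested. Their median log2 fold change was -0.28, against 0.01 over all genes. With oridonin 1 alone fewer of them were called in each direction, as over all genes.

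The genes whose profiles over the 6 libraries were nearest to B2M, by the Euclidean distance of centred log2 CPM among 9226 genes, were GDE1, UROS, ELOC, NPTN and YWHAZ, at distances from 0.0471 to 0.0567. Nearest to TAP1 were ELAC2, NR1H3, LZTR1, SPPL2B and TERF2, at 0.0329 to 0.0518. The 6 libraries hold only 2 groups, so genes with a like difference between groups lie near each other on this measure.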

How the data were processed

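RNA was sequenced from 6 HepG2 samples, grouped by the treatment in their labels. The authors deposited whole-number counts per gene, not scaled, and log2 FPKM values (per gene length and library size). Genome build hg38 and DESeq2 1.10.1 come from the submitters' processing notes; the aligner, the counter and the strand setting were not given in the sources used here. Libraries within a group differed beyond sampling noise, so each counted once.

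Counts were filtered with filterByExpr, scaled by TMM and fitted with edgeR 4.0.16 (R 4.3.3; glmQLFit robust, glmQLFTest) on treatment alone, with Benjamini-Hochberg adjustment over 15116 genes. SE is the log2 fold change over the square root of F, and intervals are 1.96 SE. On simulated data of 14717 genes with this design, 30 of 50 genes changed 1.25-fold, 45 of 50 changed 1.5-fold and 3 of 14517 unchanged genes were called. The simulation changed a far smaller share of genes than the 41.9% called here. It took each gene's spread from a fitted trend, so these rates may not carry over. Alternatives used limma 3.58.1 and DESeq2 1.42.0.

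The 9 genes and all lists were chosen with earlier results of these data known. Genes named are the 9, up to 4 called genes with the smallest p in a list's main direction and up to 2 in the other, the 2 most expressed where none was called, the 6 catalytic proteasome subunits, and the 5 nearest profiles; exceptions are marked.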

Additional observations from a re-analysis of the deposited data

How the results depend on the processing

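B2M and TAP1 were called higher under all 15 settings planned: other scalings (total counts, RLE, upper quartile), DESeq2, voom, limma on log2 FPKM, no or a 1 CPM filter, each library left out, and a replicate block. The added setting, oridonin 1 alone, was chosen after seeing the data; there 0 of the 9 genes were called higher and 0 lower, of 1593 genes higher and 1986 lower in all. Genes of the 9 called lower numbered 0 with limma on log2 FPKM and 0 to 1 with 1 library left out. Leaving out 1 library gave 2534 to 3258 genes higher and 2748 to 3289 lower in all. Pathway genes called higher were 8 to 11 with 1 library left out, 4 with oridonin 1 alone and 13 with no filter, which added HLA-DRA, HLA-DRB1, HLA-DPA1, HLA-DPB1 and IRF8, too few counts to pass it. With total counts 65.5% of all calls were higher, against 49.2% with TMM, and log2 fold changes moved up by a median of 0.0802; HLA-B (0.0426), HLA-C (0.0449), TAPBP (0.0244) and CD74 (0.0318) changed sign, none of them called; the cause was not tested. HLA-B ran from -0.124 to 0.0234 with 1 library left out (0.0203 without DMSO 2 and 0.0234 without oridonin 1), HLA-F from -0.0400 (without DMSO 1) to 0.354, and HLA-F was -0.115 with oridonin 1 alone. The summed heavy chains ran from -0.0069 (without DMSO 1) to 0.0692 with 1 library left out. Over the 15 alternatives fitted for this sum the highest value was 0.115, and the sum was not called in any of them. With 1 library left out, the log2 difference ran from -0.56 to -0.49 for PSMB8 to PSMB5, from -0.88 to -0.59 for PSMB9 to PSMB6 and from -0.78 (without DMSO 1) to -0.32 (without DMSO 2) for PSMB10 to PSMB7, and the fold change of PSMB10 itself from -0.60 to -0.19.

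Same-numbered libraries had correlations of deviations of 0.194, 0.0651 and 0.173, and other pairs ran from -0.162 to 0.00732. Each library thus correlated best with its own number. The main fit left the numbers out because the labels do not say that they mark a shared culture or day. Whether they do was not tested. A replicate block gave 3850 genes higher and 3839 lower and added HLA-E (0.0897, adjusted p = 0.0356). Depth limits the genes with few counts, such as CIITA, CTSS, PSMB10, HLA-F and PSMB9.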
